A study of Mus musculus with 2 samples.

Results

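The genes described here are those of the tricarboxylic acid (TCA) cycle, of the entry of pyruvate into it and of the shuttle that brings the reducing equivalents of cytosolic NADH into mitochondria. They were measured by RNA-seq in hearts of mouse embryos at E13.5 (mid-gestation), in 1 library from Lmna H222P/H222P hearts and 1 from wild-type (WT) hearts. Lmna encodes lamins A and C of the nuclear lamina. The H222P allele carries a missense mutation and serves in mice as a model of laminopathy, in which LMNA mutations damage heart and skeletal muscle. Both libraries were labelled strain 129sv, and the labels gave neither the number nor the sex of the hearts in a library. The members were the 36 genes of a list of symbols, and all 36 were found among 55348 gene entries. The comparison asked how these transcripts differ in amount between the mutant heart and the WT heart.

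Pyruvate made in the cytosol enters the mitochondrial matrix through a carrier, and the pyruvate dehydrogenase complex turns it into acetyl-CoA. The TCA cycle oxidises acetyl-CoA and passes the electrons on to the respiratory chain. The malate-aspartate shuttle brings electrons of cytosolic NADH into mitochondria and is the main such route in heart muscle. Embryonic hearts rely much on glycolysis, and oxidative capacity grows as cardiomyocytes mature.

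The H222P library held 25120790 reads on genes and the WT library 32669225, of which the 36 members took 0.627% in H222P and 0.827% in WT. Levels are given as CPM, read counts scaled to the size of the library after correction by TMM factors. With 1 library per genotype there was no replicate check and no test of the genotypes, so every difference lies between these 2 libraries, and the 95% intervals cover counting error only. Markers of heart muscle were abundant in both libraries, with levels of 241 to 3276 CPM in H222P and 379 to 6896 CPM in WT for the 20 cardiomyocyte markers. Their summed level was 23078 CPM in H222P against 43806 CPM in WT, and 18 of the 20 were at least 1.5-fold lower. All 20 hepatocyte markers were at least 1.5-fold higher, with a summed level of 6600 CPM in H222P against 39.1 CPM in WT (1 of them, Fabp1, had 0 reads in WT), and 14 of 15 measured erythroid precursor markers were as well (3171 CPM in H222P against 553 CPM in WT). The 12 endothelial markers had a summed level of 924 CPM in H222P and 1630 CPM in WT, with 8 at least 1.5-fold lower and 0 higher. The fibroblast and valve, smooth muscle and lung lists held members on both sides. Of the 12 fibroblast and valve markers (3159 CPM in H222P, 5527 CPM in WT) 7 were lower and 2 higher by that bound, and of the 8 smooth muscle markers (1147 CPM in H222P, 1493 CPM in WT) 2 were lower and 2 higher. Of the 8 lung markers (167 CPM in H222P, 117 CPM in WT) 3 were lower and 3 higher, and the lung-specific Sftpc had 1 read in H222P and 211 in WT. The 10 neural markers summed to 56.4 CPM in H222P and 22.8 CPM in WT, and of the 8 measured 0 were lower and 5 higher. In whole hearts, fewer cells of a type, less RNA per cell and a larger share of RNA from other cells in the library cannot be told apart.

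Transcripts of the pathway were lower in the H222P library as a rule. Of the 36 members, 30 had a log2 ratio (H222P over WT) below 0 (29 with total-count scaling) and 6 above it, and the median was −0.45, against −0.01 over all 14716 genes whose mean level reached 1 CPM. At least 1.5-fold lower were 9 members (Mdh1, Idh2, Me3, Pdhb, Pdk2, Sucla2, Pdha1, Slc25a12 and Idh3a), or 25% of the list, where 11.4% of all genes tested were that much lower. Only Pcx was at least 1.5-fold higher, where 10.9% of all genes tested were that much higher. Among the 12138 genes whose mean level reached that of the least abundant member, 9.41% were that much lower and 7.58% higher. The 36 members together summed to 5944 CPM in H222P against 8723 CPM in WT, 1.47-fold lower. All 36 passed the minimum of 1 CPM. The counting interval of the ratio held 0 for 0 of the 36 members. It lay wholly beyond 1.5-fold lower for 6 of them (Mdh1, Idh2, Pdhb, Pdk2, Sucla2 and Pdha1) and wholly beyond 1.5-fold higher for Pcx. These interval counts were not made over all genes tested. An interval narrows as reads increase, so they reflect read numbers and do not set the members apart from other genes. With total-count scaling Pdha1 fell short of the bound (log2 ratio −0.51). The bound of 1.5-fold fell within a dense run of values: Idh3a, 1.51-fold lower, was just inside it, and Fh1 (263 CPM in H222P, 394 CPM in WT) and Mpc2 (43.9 CPM in H222P, 65.6 CPM in WT) were just outside.

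**Figure D1:**
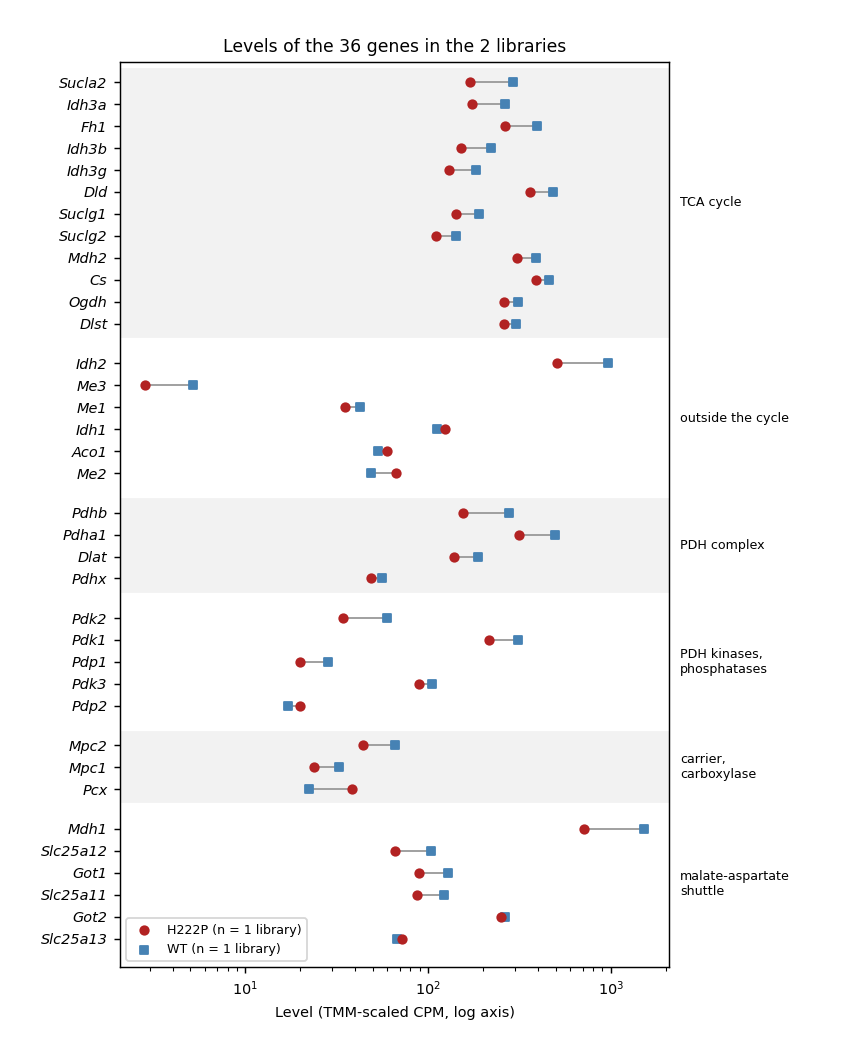
Level of each of the 36 genes in the H222P library (circles) and the WT library (squares), as TMM-scaled CPM on a log axis, ordered by role. Mdh1 had the highest CPM in both libraries (718 CPM in H222P, 1524 CPM in WT), and the circle lies left of the square for 30 genes.

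**Figure D2:**
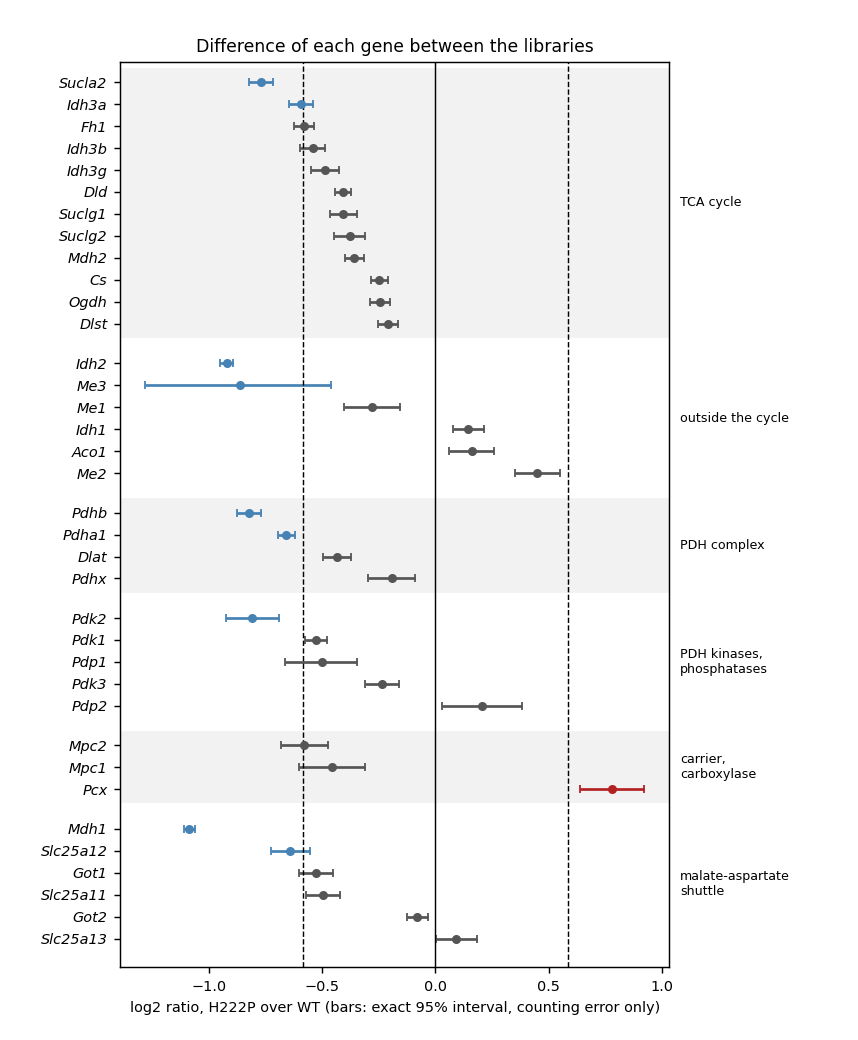
Log2 ratio of each gene, H222P over WT, with its exact 95% interval for counting error. Dashed lines mark 1.5-fold in either direction, and genes beyond them are coloured. All 12 TCA cycle enzymes lie left of 0, and Pcx is the only gene right of the upper dashed line.

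The lowest member was Mdh1, cytosolic malate dehydrogenase (chromosome 11, 21556787 to 21572367, mm10), with 19009 reads in H222P and 47229 in WT. Its level was 718 CPM in H222P and 1524 CPM in WT, 2.12-fold lower (interval of the log2 ratio −1.11 to −1.06). Second lowest was Idh2, the NADP-dependent isocitrate dehydrogenase of mitochondria (13470 reads in H222P, 29852 in WT), at 509 CPM in H222P against 963 CPM in WT. At the other end stood Pcx, pyruvate carboxylase, which makes oxaloacetate from pyruvate, with 1018 reads in H222P and 693 in WT. The promoter windows of these 3 genes are shown, and that of Pdhb, which had the lowest ratio within the pyruvate dehydrogenase complex. Me3, which lay between Idh2 and Pdhb with 75 reads in H222P and 160 in WT, rests on few reads and its window is not shown.

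The RefSeq windows (build GRCm38.p6) run from 250 bases before to 50 bases after an annotated start. Capitals mark the letters CCAAT (the CCAAT box) and ACGTG (the core of hypoxia response elements), on either strand, so that ATTGG and CACGT are also in capitals. The first of the annotated starts of Pcx is shown.
Mdh1 (chr11:21571885-21572184, minus strand): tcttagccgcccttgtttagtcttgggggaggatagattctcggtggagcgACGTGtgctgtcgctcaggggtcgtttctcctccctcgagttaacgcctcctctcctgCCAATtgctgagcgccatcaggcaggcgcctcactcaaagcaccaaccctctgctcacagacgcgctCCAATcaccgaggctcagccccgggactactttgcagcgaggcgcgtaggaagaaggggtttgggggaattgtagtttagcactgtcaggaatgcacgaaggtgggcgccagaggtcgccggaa
Idh2 (chr7:80115301-80115600, minus strand): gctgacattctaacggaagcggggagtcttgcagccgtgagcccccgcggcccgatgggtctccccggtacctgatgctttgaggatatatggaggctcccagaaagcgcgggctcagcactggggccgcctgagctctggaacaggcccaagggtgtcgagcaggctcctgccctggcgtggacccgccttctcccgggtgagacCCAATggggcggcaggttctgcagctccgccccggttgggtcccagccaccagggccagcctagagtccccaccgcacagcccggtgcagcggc
Pdhb (chr14:8172943-8173242, minus strand): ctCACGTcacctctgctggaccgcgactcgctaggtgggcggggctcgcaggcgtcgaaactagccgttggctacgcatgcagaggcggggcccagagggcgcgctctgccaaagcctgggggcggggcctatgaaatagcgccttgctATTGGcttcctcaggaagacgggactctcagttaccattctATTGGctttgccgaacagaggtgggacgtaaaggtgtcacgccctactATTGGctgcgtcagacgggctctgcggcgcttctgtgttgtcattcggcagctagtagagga
Pcx (chr19:4510222-4510521, plus strand): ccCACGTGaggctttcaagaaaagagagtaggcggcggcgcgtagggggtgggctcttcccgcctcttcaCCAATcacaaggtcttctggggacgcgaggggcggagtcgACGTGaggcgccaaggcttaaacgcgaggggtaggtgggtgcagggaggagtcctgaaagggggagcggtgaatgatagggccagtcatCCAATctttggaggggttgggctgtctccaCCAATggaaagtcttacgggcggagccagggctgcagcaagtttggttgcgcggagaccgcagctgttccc
Mdh1 held 2 CCAAT boxes, 141 and 74 bases before the start, and Pdhb held 3, all on the opposite strand. Pcx held 3 as well, and Idh2 held 1, 44 bases before the start. A window was found for 33 of the 36 members. CCAAT was found in the windows of 21 of these 33 genes (63.6%), against 41.1% of 27025 genes with a window, and ACGTG in 10 (30.3%), against 21.8%. These 27025 genes were taken whether expressed in the hearts or not. A gene with several windows has more chances of a match, and the 33 members had 44 windows, against 32851 for the 27025 genes. The shares were not adjusted for this. The median GC content was 61.5% for the members' windows and 52.7% for all windows. The element TCAAGGTCA, bound by estrogen-related receptors, was found in 0 of 33 members (0.466% of all genes). The NRF1 core GCGCATGCG was found in 1 (Ogdh; 1.95% of all genes), and the ETS site CCGGAAGT of GABP in 1 (Dlst; 4.31% of all genes). These matches describe letters in the windows and do not show binding.

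The 12 members that are enzymes of the cycle itself were all lower in the H222P library (median log2 ratio −0.41, range −0.77 to −0.21). At least 1.5-fold lower were 2 of them (16.7%), against 11.4% of all genes tested. Cs, citrate synthase, which opens the cycle, had 389 CPM in H222P and 462 CPM in WT, 1.19-fold lower. The 3 subunits of NAD-dependent isocitrate dehydrogenase differed alike. Idh3a, the catalytic subunit, had 174 CPM in H222P against 263 CPM in WT. Idh3b had 151 CPM in H222P against 220 CPM in WT, and Idh3g 130.2 CPM in H222P against 183 CPM in WT. Their log2 ratios were −0.54 and −0.49, and each subunit kept its share of the set's reads within overlapping intervals (Idh3a 38.3% in H222P, 39.5% in WT).

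The oxoglutarate dehydrogenase complex, the next step, showed smaller differences. Ogdh, its first component, had 261 CPM in H222P and 309 CPM in WT, and Dlst, its succinyltransferase core, had 261 CPM in H222P and 302 CPM in WT, the smallest difference among the cycle enzymes at 1.16-fold. Dld, the lipoamide dehydrogenase that this complex shares with pyruvate dehydrogenase, was 1.33-fold lower.

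Succinyl-CoA ligase pairs one alpha subunit, Suclg1, with a beta subunit that sets whether ATP or GTP is formed. Sucla2, the ATP-forming beta subunit, had 171 CPM in H222P against 291 CPM in WT and was 1.70-fold lower (log2 interval −0.82 to −0.72). Suclg2, the GTP-forming one, had 110 CPM in H222P and 143 CPM in WT (log2 ratio −0.38), and Suclg1 was 1.33-fold lower. Sucla2 therefore made up 60.8% of the reads of both beta subunits in H222P (exact binomial interval 59.7 to 61.9) and 67.0% in WT (66.2 to 67.8). Suclg2 has a processed pseudogene, Gm15163, with 197 reads in H222P and 275 in WT. Fh1, fumarate hydratase, stood just under the 1.5-fold bound, with 263 CPM in H222P and 394 CPM in WT. Mdh2, the malate dehydrogenase of the cycle, was 1.28-fold lower, at 306 CPM in H222P and 392 CPM in WT.

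All 4 genes specific to the pyruvate dehydrogenase complex were lower, and the 2 subunits of its first enzyme, E1, more than the rest. Pdha1, the E1 alpha subunit, had 313 CPM in H222P against 494 CPM in WT (1.58-fold lower), and Pdhb, the E1 beta subunit, had 156 CPM in H222P against 277 CPM in WT (1.77-fold lower). Dlat, the acetyltransferase core, was 1.35-fold lower, and Pdhx, the protein that binds Dld to the core, was 1.14-fold lower. Per kb of exon, Pdhb stood at 40.5 CPM per kb in H222P and 71.6 CPM per kb in WT, and Dld at 98.4 CPM per kb in H222P and 131 CPM per kb in WT. The level per kb of Dld was thus 1.18 times that of Pdha1 in H222P and 0.988 times in WT. A processed pseudogene of Pdhb, Gm6123, had 629 reads in H222P and 639 in WT, and reads that map to both places were left out of either count.

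The complex is switched off by kinases and on by phosphatases. Pdk1, a kinase induced by hypoxia, had 216 CPM in H222P and 312 CPM in WT. Per kb of exon it stood at 27.8 CPM per kb in H222P and 40.1 CPM per kb in WT, below Pdk3 with 35.1 CPM per kb in H222P and 41.3 CPM per kb in WT. Pdk2 was 1.75-fold lower, at 34.1 CPM in H222P against 59.7 CPM in WT, and Pdk3 1.18-fold lower, at 89.8 CPM in H222P against 106 CPM in WT. Pdk2 supplied 10.03% of the reads of the 3 kinases in H222P (9.41 to 10.7) and 12.5% in WT (12.0 to 13.1), and Pdk3 26.4% in H222P and 22.2% in WT. The phosphatases went in opposite directions. Pdp1, the calcium-sensitive form of muscle, had 19.9 CPM in H222P and 28.2 CPM in WT, and Pdp2 had 19.8 CPM in H222P and 17.2 CPM in WT. Pdp1 made up 50.1% of their reads in H222P (47.0 to 53.2) and 62.2% in WT (59.6 to 64.7).

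At the entry of pyruvate, both subunits of the mitochondrial carrier were lower, Mpc1 1.37-fold (23.7 CPM in H222P, 32.5 CPM in WT) and Mpc2 1.49-fold (43.9 CPM in H222P, 65.6 CPM in WT). Mpc1 made up 35.0% of their reads in H222P and 33.1% in WT, with overlapping intervals. A processed pseudogene, Mpc1-ps, matches Mpc1 fully over 261 bases and had 164 reads in H222P and 256 in WT. Reads that map to both places were left out, which can lower the level and share of Mpc1. Pcx, whose enzyme is most abundant in liver, kidney and fat, was 1.72-fold higher, at 38.4 CPM in H222P against 22.4 CPM in WT (log2 interval 0.64 to 0.92). In the same library the hepatocyte markers were far higher (summed level 6600 CPM in H222P, 39.1 CPM in WT), and their part in the value of Pcx was not tested.

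In the malate-aspartate shuttle 5 of 6 genes had ratios below 0, of which Got2 turned to a log2 ratio of 0.07 with total-count scaling, and the cytosolic and mitochondrial enzymes differed unequally. Got1, the cytosolic aspartate aminotransferase, had 89.4 CPM in H222P and 129 CPM in WT, while Got2, its mitochondrial partner, had 251 CPM in H222P and 265 CPM in WT. Mdh2 took 29.9% of the reads of both malate dehydrogenases in H222P (29.3 to 30.4) and 20.4% in WT (20.1 to 20.8), and Got2 took 73.7% of those of both aminotransferases in H222P and 67.3% in WT. Got2 has a processed pseudogene, Got2-ps1, with 382 reads in H222P and 437 in WT. Slc25a11, the carrier of malate and oxoglutarate, was 1.41-fold lower.

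The 2 aspartate-glutamate carriers of the shuttle parted. Slc25a12 (aralar), the form of heart, muscle and brain, had 66.3 CPM in H222P against 103 CPM in WT and was 1.56-fold lower (log2 ratio −0.64, and −0.49 with total-count scaling, short of the 1.5-fold bound). Slc25a13 (citrin), the form of liver, had 72.0 CPM in H222P and 67.5 CPM in WT, a log2 ratio of 0.09 (0.002 to 0.18). Slc25a12 supplied 48.0% of their reads in H222P (46.3 to 49.6) and 60.5% in WT (59.2 to 61.8). The hepatocyte markers moved the same way as Slc25a13 and the cardiomyocyte markers the same way as Slc25a12, and their part in this shift was not tested.

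**Figure D3:**
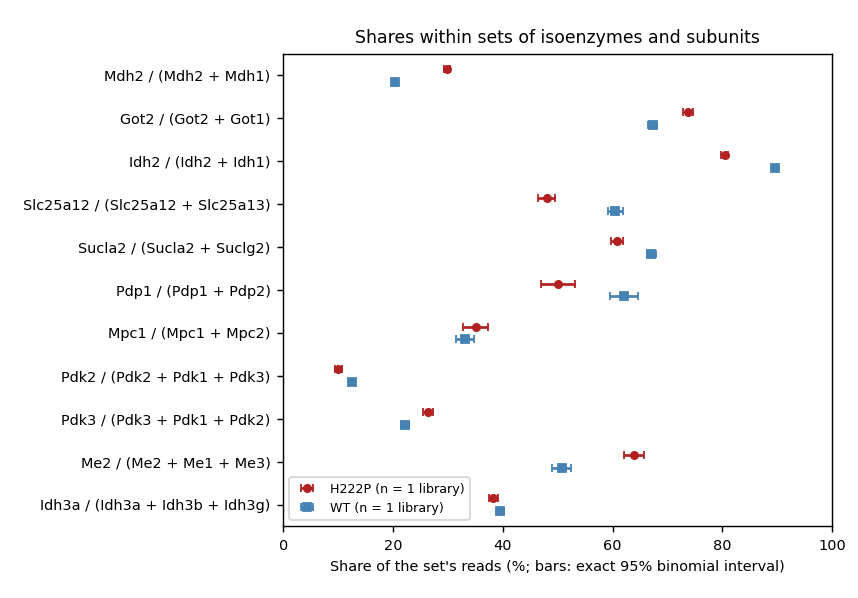
Share of the reads of each set of isoenzymes or subunits taken by its first-named gene, in the H222P library (circles) and the WT library (squares), with exact 95% binomial intervals. The largest gaps shown are those of Me2 (63.9% in H222P, 50.7% in WT) and Slc25a12 (48.0% in H222P, 60.5% in WT), while the intervals of Mpc1 and Idh3a overlap between the libraries.

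The enzymes that use isocitrate, citrate and malate outside the cycle had no common direction, with 3 lower and 3 higher (median log2 ratio −0.07). Idh2 was 1.89-fold lower, whereas Idh1, its cytosolic counterpart, had 124 CPM in H222P and 112 CPM in WT (log2 ratio 0.15, interval 0.08 to 0.21). Idh2 took 80.4% of the reads of both in H222P (79.8 to 81.0) and 89.6% in WT (89.3 to 89.9). Aco1, the cytosolic aconitase that also binds RNA as an iron regulatory protein, had 59.6 CPM in H222P and 53.3 CPM in WT.

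The 3 malic enzymes, which turn malate into pyruvate, each differed. Me2, the NAD-dependent mitochondrial form, was 1.37-fold higher, with 66.9 CPM in H222P and 49.0 CPM in WT. Me1, the cytosolic form used in fat synthesis, was 1.21-fold lower, at 35.0 CPM in H222P and 42.5 CPM in WT. Me3, the NADP-dependent mitochondrial form, was last in level, also per kb, with 75 reads in H222P and 160 in WT, and was 1.82-fold lower with a wide interval (log2 −1.28 to −0.46). Me2 took 63.9% of the reads of the set in H222P (62.1 to 65.7) and 50.7% in WT (48.9 to 52.5). Of the 6 members above 0, Pcx, Me2, Pdp2, Aco1, Idh1 and Slc25a13, none lay among the 10 most abundant per kb in either library. They were measured in a library in which the summed hepatocyte and erythroid markers were higher (hepatocyte 6600 CPM in H222P against 39.1 CPM in WT, erythroid 3171 CPM in H222P against 553 CPM in WT), and the part of such transcripts in their values was not tested.

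The order of the members by level changed little. Per kb of exon, Mdh1 stood first and Idh2 second in both libraries (280 and 197 CPM per kb in H222P, 594 and 372 CPM per kb in WT), and 30 of 36 members kept their rank to within 3 places. Mdh1 supplied 12.1% of the members' reads in H222P and 17.5% in WT. Without Mdh1 the summed reads of the others were 1.38-fold lower, and without Mdh1 and Idh2 they were 1.32-fold lower.

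Oxidative phosphorylation and glycolysis genes also had medians below 0; differences between lists were not tested. Of 39 measured oxidative phosphorylation genes, 16 (41.0%) were at least 1.5-fold lower and 0 higher (median −0.55). The highest CPM among them was that of Atp5b, 1875 CPM in H222P and 2615 CPM in WT. Of 21 glycolysis genes, 6 (28.6%) were lower by that bound and 0 higher (median −0.38). Over all genes tested, 11.4% were that much lower and 10.9% that much higher. The members amounted to 61.1 reads per 100 reads of the oxidative phosphorylation list in H222P and 61.7 in WT. Set against the cardiomyocyte markers, whose median was −0.92, they amounted to 25.8 reads per 100 marker reads in H222P and 19.9 in WT. How far the lower share of cardiomyocyte transcripts enters the members' values was not tested.

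**Figure D4:**
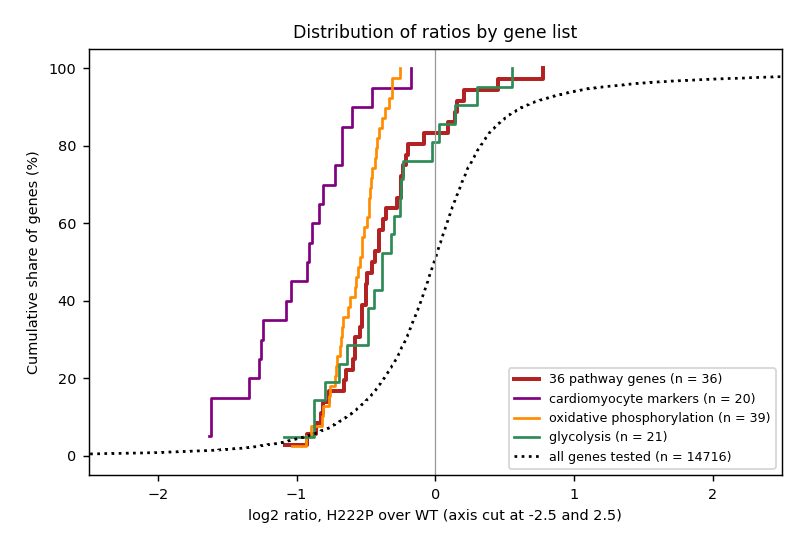
Cumulative share of genes (%) by log2 ratio, H222P over WT, for the 36 members, the cardiomyocyte markers, the oxidative phosphorylation and glycolysis lists and all genes tested. The members' median (−0.45) lies between those of oxidative phosphorylation (−0.55) and glycolysis (−0.38), left of all genes (−0.01) and right of the cardiomyocyte markers (−0.92).

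Of 25 measured non-member genes in or next to the pathway, 4 were at least 1.5-fold lower (16%), 4 higher and 17 between (median −0.03). Over all genes tested, 11.4% were that much lower and 10.9% that much higher, not far from these shares. Sdhd, a membrane anchor of succinate dehydrogenase, had 247 CPM in H222P against 371 CPM in WT (log2 ratio −0.587), just inside the 1.5-fold bound. The other subunits of succinate dehydrogenase were lower too, short of that bound. Log2 ratios were −0.44 for Sdha, −0.51 for Sdhb and −0.53 for Sdhc. Pdk4, the kinase induced by fasting and fatty acids, had 550 reads in H222P and 1501 in WT, 2.33-fold lower and below all 3 kinases of the list in its ratio. Ldhb, the heart-type lactate dehydrogenase subunit, was 2.13-fold lower, and Oxct1, which activates ketone bodies for oxidation, 1.55-fold lower. Of the 4 higher genes, 1 had a mean below 5 CPM, and the others were Glud1, glutamate dehydrogenase (339 CPM in H222P, 160 CPM in WT), Slc25a1, the citrate exporter (31.0 CPM in H222P, 16.4 CPM in WT), and Bdh1, a ketone body enzyme abundant in liver (43.1 CPM in H222P, 10.2 CPM in WT).

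Among 15 regulators of mitochondrial genes, 5 (33.3%) were at least 1.5-fold lower and 0 higher, against 11.4% and 10.9% of all genes tested. Ppargc1a, the coactivator PGC-1 alpha, had 49.6 CPM in H222P against 105 CPM in WT, 2.12-fold lower. The estrogen-related receptors, factors that bind promoters of oxidative genes, were lower too, Esrra 1.59-fold, Esrrg 1.63-fold and Esrrb 2.17-fold (4.64 CPM in H222P, 10.1 CPM in WT). The remaining lower gene had a mean below 5 CPM, and the other 10 lay within 1.5-fold. The list had no common direction: 9 of the 15 had log2 ratios below 0 and 6 above it, up to 0.46. Its median was −0.13.

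**Figure D5:**
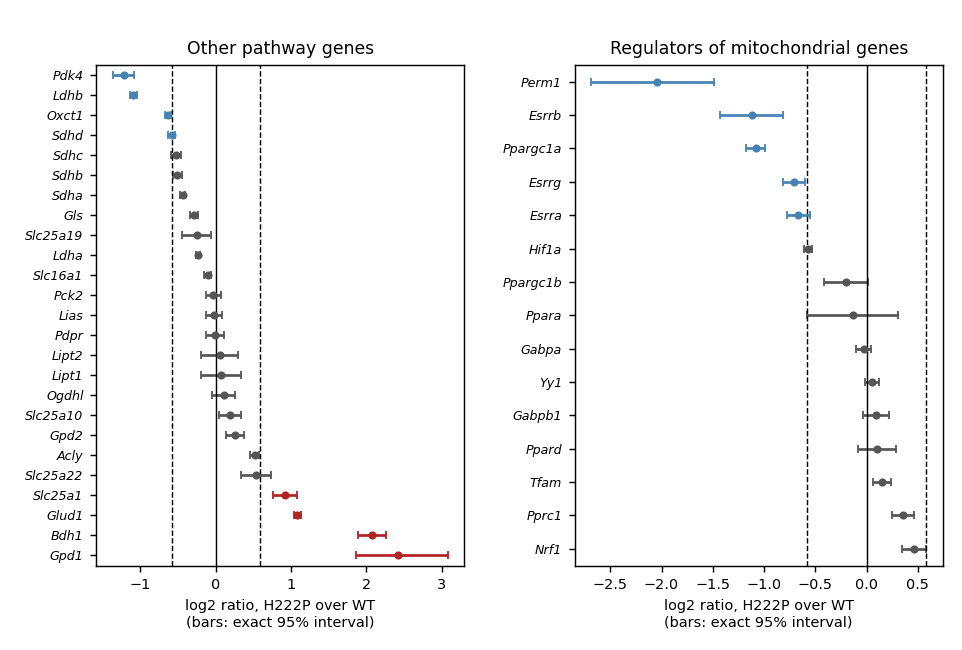
Log2 ratio, H222P over WT, of other genes of the pathway (left) and of regulators of mitochondrial genes (right), with exact 95% intervals for counting error and dashed lines at 1.5-fold. Pdk4 and Ldhb lie at the low end of the left panel, and Ppargc1a and the 3 estrogen-related receptors lie beyond the lower line in the right panel.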

How the data were processed

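RNA from E13.5 hearts was sequenced in 2 libraries, grouped by the genotype label. The authors deposited raw counts of reads per gene for both strands together and for each strand. Per the submitters' processing notes, STAR, HTSeq, DESeq and build mm10 were used, without versions or roles. The reverse-strand column was used; it held 20.5 times (H222P) and 19.3 times (WT) the reads of the other strand column. Reads that the tables list apart from genes (unmapped, at several places, outside genes or ambiguous; 18.0% of all reads in H222P and 17.2% in WT) stayed out of library sizes. TMM factors came from edgeR 4.0.16 in R 4.3.3. Log2 ratios used a prior count of 0.5. Intervals are exact Clopper-Pearson 95% intervals (scipy 1.17.1 in Python 3.11.15), for counting error only. Reads counted without molecular identifiers may repeat 1 molecule, so the intervals may be too narrow even for that error. Genes that reached a mean of 1 CPM were compared over the whole table and described by a bound of 1.5-fold. Positions and merged exon lengths came from GENCODE M21 (GRCm38, the assembly of mm10); merged exons can overstate the length of a transcript. All members could be named, and other pathway genes and regulators beyond 1.5-fold at a mean of at least 5 CPM. The subunits of succinate dehydrogenase within 1.5-fold were named beside Sdhd. A gene of the list of other pathway genes is not reported here. The members and lists were chosen with earlier results of these data known. The calls and intervals were tested on simulated counts that held counting error only, with the scaling taken as known. That test does not cover the scaling or differences between animals. The 9 alternatives covered scaling (DESeq2 1.42.0 size factors, total counts), filters, prior count, strand, gene set and depth.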

Additional observations from a re-analysis of the deposited data

How the results depend on the processing

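No paired analysis was possible because each genotype had 1 library. With 1 library per group no replicate could be left out. The members at least 1.5-fold lower numbered 6 to 11 over the 9 alternatives, beside 9 in the report, while the share of all genes that much lower ran from 7.74% (total counts) to 21.5% (no filter), beside 11.4%. Total-count scaling moved the median of all genes from −0.01 to 0.15. It gave 2 members at least 1.5-fold higher (Pcx and Me2), a members' median of −0.29 and 6 lower members, without Idh3a, Pdha1 and Slc25a12, where 15.2% of all genes were that much higher and 7.74% lower. Got2 turned to a log2 ratio of 0.07 there, the 1 change of sign among the members. The members' median was −0.47 with DESeq2 size factors, −0.43 at a mean of at least 5 CPM, which leaves out Me3, and −0.45 with both strands counted. Fh1 passed the lower bound with DESeq2 size factors, with both strands counted and with the deeper library thinned, and Mpc2 with DESeq2 size factors and with thinning. Leaving out globin, hepatocyte and erythroid genes before scaling kept 9 lower members and 1 higher. That step changed the scaling only and took no reads from the members, so the part of such cells in the members' values was not tested. Of 323 recomputed member ratios, 288 stayed within their counting interval, and 33 of the other 35 came from total counts. A change of the filter on low counts cannot change a ratio, so the values of those settings could not leave their interval. With total counts, 33 of 36 members lay outside theirs. With both strands counted, the difference between the libraries was recomputed for all 16 shares. It moved by no more than the distance from a share to the upper end of its interval. The shares themselves were not held to this. Mpc1, whose exons overlap a gene on the opposite strand, had 147 reads in H222P and 235 in WT with both strands counted, against 628 and 1008. Pdha1 and Got2, which overlap such genes too, also lost reads. Pdha1 had 5106 in H222P and 9084 in WT, against 8282 and 15292. Got2 had 4635 in H222P and 5757 in WT, against 6638 and 8212. The log2 ratio of Pdha1 was −0.61 there, outside its counting interval (−0.70 to −0.62) but still beyond the 1.5-fold bound. Depth limits Me3 most, with 75 reads in H222P and 160 in WT.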
